A study of Mus musculus with 44 samples.

Results

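The contacts described here are those of the promoter of the short isoform of Slc45a3, seen from 1 bait site by 4C-seq in mouse liver and kidney. 4C-seq crosslinks chromatin, cuts it, ligates the ends that lie close together and sequences what became joined to the bait. The members are all 6074 restriction fragments of this bait that carry a contact signal in both tissues, of 30070 over the 5 baits of the series. The libraries came from wild-type (WT) C57BL/6 mice of 8 to 12 weeks with food at all times, taken at zeitgeber time (ZT) 20, that is 20 h after lights on. Each tissue had 2 libraries, lettered EF and GH, so 4 libraries of the 20 made by 4C-seq belong to this bait. Nuclei were made from the livers and kidneys of single animals and fixed with formaldehyde. The series also holds 24 kidney RNA libraries from 129SV mice fed only at night, WT or lacking Arntl (Bmal1), of which the 12 WT libraries are set beside the contacts below. The libraries of a tissue stand in the files as 1 combined signal with 1 variance per fragment. The differences below therefore have no replicate check, and no p-value was computed. The libraries hold genomic DNA, so the tissue labels could not be checked against marker genes. Liver and kidney are each mixtures of cell types, and a contact made in fewer cells cannot be told apart from a contact made less often per cell.

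As background, promoters meet distant DNA in the nucleus when the chromatin fibre folds. Contact signal falls steeply with distance along the chromosome, and loops to enhancers or to other promoters stand above that fall. Such loops can differ between organs, and the series addresses, by its title, whether tissue-specific contacts go with rhythmic expression across organs. Slc45a3 belongs to a small family of membrane proteins that carry sugars together with protons, and its human counterpart is known as prostein, a protein abundant in the prostate. The gene lies on the plus strand of mouse chromosome 1 (ENSMUSG00000026435, chr1:131962967-131982969, GRCm38), so negative distances below are upstream of it.

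The bait sits at chr1:131971381 in a GATC fragment that runs from 131970888 to 131971872. The short transcript, Slc45a3-201 (ENSMUST00000027695), starts at 131970609, which is 279 bases before that fragment. The long transcript, Slc45a3-202 (ENSMUST00000177943), starts at 131962967, at -8.41 kb from the bait. The sequence before the short start is shown first, then those at the peaks of the 2 strongest regions for each tissue. Tissue differences below were read at these peaks but not at the short start. The fragments with a value nearest to the bait lay at -4.07 kb and 4.16 kb. Strongest means here the largest difference relative to its error. All sequences are on the plus strand of GRCm38, the promoter as given by RefSeq. Capitals mark matches to the motifs described at the end of the results.
Short promoter, 250 bases, chr1:131970359-131970608: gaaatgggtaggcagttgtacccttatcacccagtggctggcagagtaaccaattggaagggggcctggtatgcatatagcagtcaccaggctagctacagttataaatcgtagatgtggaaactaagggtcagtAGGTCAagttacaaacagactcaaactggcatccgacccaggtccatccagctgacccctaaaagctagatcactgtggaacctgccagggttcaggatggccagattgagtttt
Liver region upstream, intergenic, chr1:131939846-131940145: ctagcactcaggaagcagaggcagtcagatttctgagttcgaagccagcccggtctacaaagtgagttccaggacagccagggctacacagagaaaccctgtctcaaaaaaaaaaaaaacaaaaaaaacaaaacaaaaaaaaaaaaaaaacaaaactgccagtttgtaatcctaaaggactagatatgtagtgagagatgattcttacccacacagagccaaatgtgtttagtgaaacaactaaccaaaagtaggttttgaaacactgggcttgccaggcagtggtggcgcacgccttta
Liver region past the 3′ end, intergenic, chr1:131989069-131989368: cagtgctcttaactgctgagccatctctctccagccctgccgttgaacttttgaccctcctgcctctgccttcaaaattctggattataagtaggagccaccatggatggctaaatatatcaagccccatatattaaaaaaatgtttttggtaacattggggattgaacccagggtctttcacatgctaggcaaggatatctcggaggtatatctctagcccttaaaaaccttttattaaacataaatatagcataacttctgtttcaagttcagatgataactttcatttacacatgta
Kidney region between Lemd1 and Klhdc8a, chr1:132269835-132270134: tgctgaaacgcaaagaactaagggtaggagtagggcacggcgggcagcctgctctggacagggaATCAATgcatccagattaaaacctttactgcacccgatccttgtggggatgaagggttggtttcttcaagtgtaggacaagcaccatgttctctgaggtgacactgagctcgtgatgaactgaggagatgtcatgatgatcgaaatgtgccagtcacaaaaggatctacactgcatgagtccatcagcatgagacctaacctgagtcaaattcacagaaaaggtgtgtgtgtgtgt
Kidney region before Mfsd4a, intergenic, chr1:132085024-132085323: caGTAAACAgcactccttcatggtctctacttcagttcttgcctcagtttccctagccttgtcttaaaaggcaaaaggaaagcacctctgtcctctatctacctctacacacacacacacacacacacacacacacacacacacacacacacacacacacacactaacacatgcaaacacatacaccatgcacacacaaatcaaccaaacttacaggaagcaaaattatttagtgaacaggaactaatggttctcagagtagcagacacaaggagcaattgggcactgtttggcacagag
The promoter holds AGGTCA, the half-site of ROR and other nuclear receptors, at its base 136. The 2 liver windows hold none of the motifs, have a GC content of 41.7% and 39.3%, and the first carries a run of mostly A. The first kidney window holds a reverse ATTGAT and the second a reverse TGTTTAC near its first base, followed by a long CA repeat.

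The contact signal is the authors' smoothed score per fragment, whose scale is not stated. It reached 1.50 in liver and 1.58 in kidney, while the median over all fragments was 0.0659 in liver and 0.0671 in kidney. The profiles of both tissues had much the same shape, with a Pearson correlation of 0.949 across fragments, which share neighbours through the smoothing and are not replicates. The difference, liver minus kidney, ran from -0.210 to 0.343 around a median of -0.00315. Its median error, the root of the summed deposited variances, was 0.0328. A fragment is called where the difference is at least 2 such errors, which is a description and not a test. By this rule 235 fragments (3.87%) were higher in liver and 362 (5.96%) were higher in kidney, together 9.83%. At 3 errors these were 75 (1.23%) and 63 (1.04%), together 2.27%. Which tissue had more calls depended on the centring: with the median difference set to 0, 323 fragments were higher in liver and 286 in kidney. By the same rule the calls were 5.9% for the long-isoform bait, 12.9% for Slc44a1, 15.8% for Mreg and 19.2% for Pi3kap1, so this share of calls is not particular to the short promoter. Within 50 kb of the bait the variances of the tissues were equal to within 1% in 107 of 136 fragments, so they are not always separate estimates of error. Differences 1 kb apart correlated at 0.981 and differences 10 kb apart at 0.450, so counts of fragments overstate the number of separate places.

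**Figure D1:**
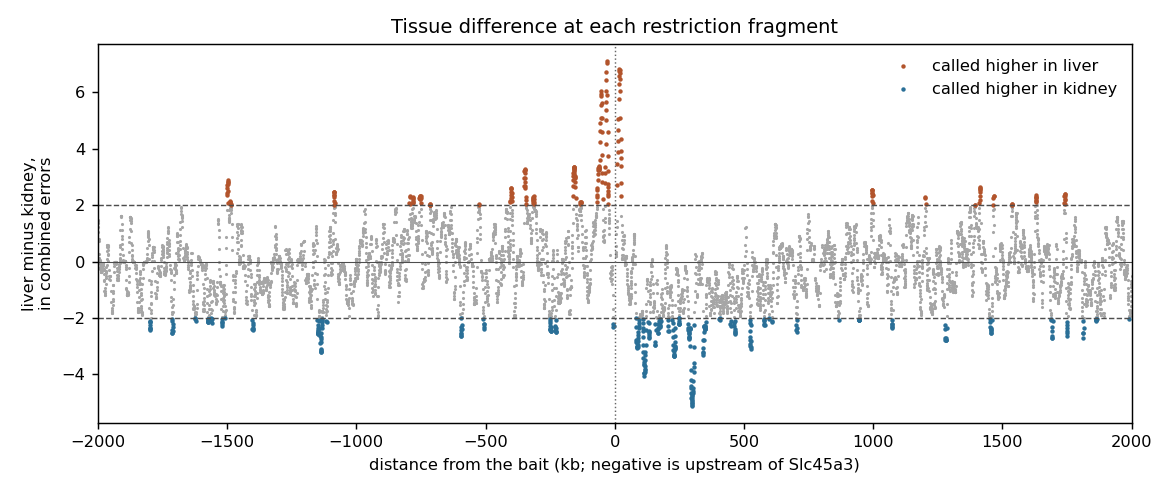
Difference between tissues (liver minus kidney, in units of the combined error) at each fragment, against distance from the bait in kb, with dashed lines at ratios of 2 and -2. Liver-called fragments (orange) reach their highest ratio of 7.11 at 31.4 kb upstream, while kidney-called fragments (blue) gather on the downstream side and reach -5.11 at 299 kb.

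Within 10 kb of the bait, kidney signal was the higher upstream, and liver signal was slightly the higher downstream. The 8 fragments within 10 kb upstream had a median signal of 1.32 in liver and 1.38 in kidney, and all 8 were higher in kidney, 3 of them called. Their median difference was -0.0629, against a median error of 0.0347. Those 3 fragments (131964954 to 131967519) lie in an intron of Slc45a3 between both start sites, with 1.46 ± 0.0240 in liver and 1.54 ± 0.0240 in kidney (root of the deposited variance) at the peak. The 9 fragments within 10 kb downstream had 1.28 in liver and 1.26 in kidney, with a median difference of 0.0233 against a median error of 0.0419. Over the whole Slc45a3 gene the mean was 1.30 in liver and 1.29 in kidney across 16 fragments, a difference of 0.0138 against a mean error of 0.0385. Its 16 fragments held 3 called in each direction, the kidney calls before the bait and the liver calls at the 3′ end.

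From 10 to 50 kb on either side, liver signal was the higher. Upstream, 60 fragments had a median of 1.05 in liver and 0.972 in kidney, and 27 were called for liver and 0 for kidney. Downstream, 59 fragments had 0.581 in liver and 0.535 in kidney, with 21 called for liver and 0 for kidney. The strongest region of all by difference over combined error (131934370 to 131947744, 22 fragments) lies upstream, mostly between Nucks1 and Slc45a3. Its peak at -31.4 kb read 1.16 ± 0.0264 in liver and 0.894 ± 0.0264 in kidney, 7.11 combined errors apart. The next (131980065 to 131996656, 22 fragments) starts within the 3′ end of Slc45a3 and runs towards Elk4, with 0.953 ± 0.0314 in liver and 0.649 ± 0.0314 in kidney at 17.8 kb, a ratio of 6.84. The third (131901255 to 131924528, 31 fragments) covers part of Nucks1, with 1.12 ± 0.0402 in liver and 0.773 ± 0.0401 in kidney at -52.6 kb and a ratio of 6.05. By the difference alone the order is reversed, with 0.343 for the third against 0.303 for the second and 0.265 for the first. At the peaks of the first and second the errors of both tissues were the same, and at the third they were nearly so. These ratios may therefore not rest on separate estimates. These liver regions sit on the shoulders of the bait peak, where both tissues have high signal.

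**Figure D2:**
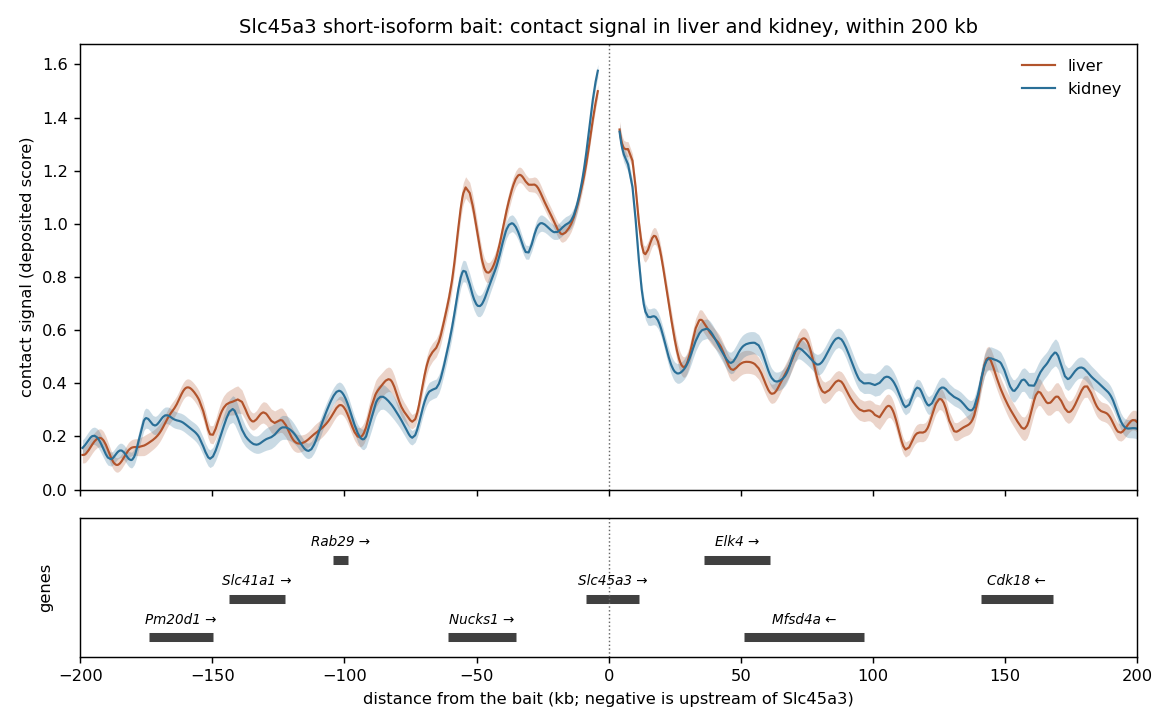
Contact signal (deposited score) in liver (orange) and kidney (blue) against distance from the bait in kb, with bands of 1 root of the deposited variance, and the protein-coding genes below with arrows for their strand. Liver lies above kidney over Nucks1 (means 0.953 and 0.789) and past the 3′ end of Slc45a3, and kidney lies above liver over Mfsd4a and Cdk18.

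The sign of the difference turned on the downstream side. The last liver-called fragment before the turn lay 25.1 kb from the bait, and the first fragment with more signal in kidney at 37.8 kb, at the start of Elk4. From 50 to 200 kb downstream, 233 fragments had a median of 0.325 in liver and 0.413 in kidney. There 68 of them (29.2%) were called for kidney and 0 for liver. From 50 to 200 kb upstream, 231 fragments had a median of 0.271 in liver and 0.234 in kidney, with 52 called for liver and 0 for kidney. The same distances thus gave calls of 1 direction on each side, liver before the gene and kidney beyond it.

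Kidney stayed above liver far along the downstream side. Of 831 fragments between 50 and 600 kb downstream, 766 (92.2%) had more signal in kidney, against 57.6% of all 6074 fragments. Of these 831, 188 (22.6%) were called for kidney and 0 for liver. In 50 kb bins the median difference was below 0 in 11 of 11 bins, from -0.107 at 100 to 150 kb to -0.0209 at 500 to 550 kb. Kidney was above liver in all fragments of the bins from 250 to 300 kb and from 350 to 500 kb. Upstream, 375 of 830 fragments (45.2%) between 50 and 600 kb had more signal in kidney, with 89 called for liver and 33 for kidney. The upstream bins changed sign several times, with liver higher in 14 of 20 bins up to 1000 kb. Beyond 600 kb downstream the bins also took either sign, with medians between -0.0221 and 0.0141. The limit of 600 kb was not set in advance, and the next bin was above 0 (0.0141). The unbroken run of bins therefore partly follows from that edge. In the band set in advance, 200 to 1000 kb downstream, 1185 fragments had medians of 0.0897 in liver and 0.115 in kidney. Of these, 133 (11.2%) were called for kidney and 9 for liver.

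**Figure D3:**
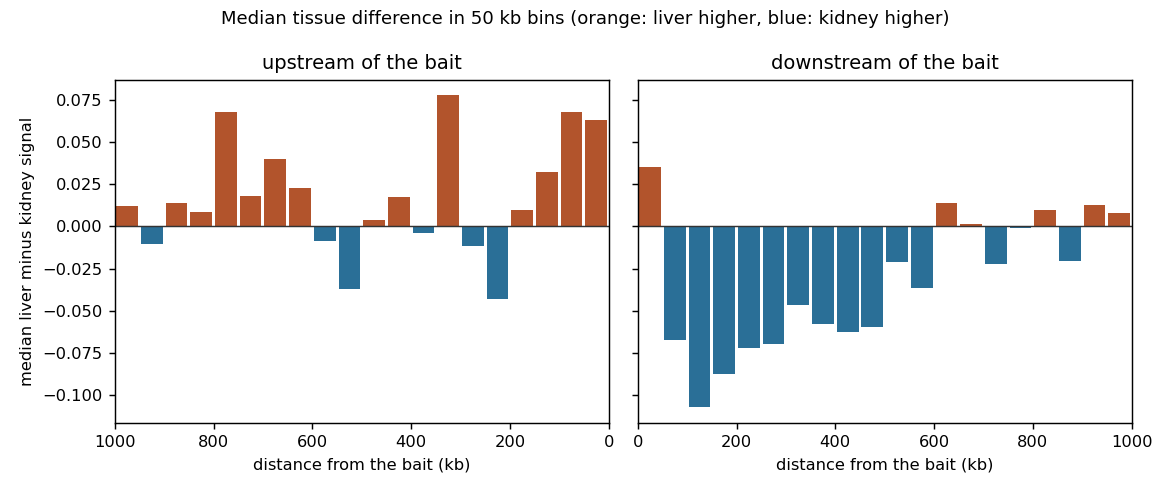
Median difference in contact signal (liver minus kidney) in bins of 50 kb, up to 1000 kb upstream (left) and downstream (right) of the bait. Each downstream bin from 50 to 600 kb lies below 0, while upstream bins lie on either side of 0, 14 of 20 above it.

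Joining calls of 1 sign over gaps of up to 10 kb gave 63 regions, 22 higher in liver and 41 higher in kidney. The kidney majority held with gaps of up to 5 kb (24 liver and 43 kidney regions) and up to 30 kb (17 and 29). It also held at a ratio of 3 (5 and 7) and at a minimum signal of 0.1 (19 and 27). It did not hold with the median difference set to 0 (33 and 30) or at a minimum difference of 0.1 (11 of each). Liver regions had a median width of 4.67 kb and kidney regions of 3.74 kb. Within 600 kb of the bait, liver regions lay 8 upstream and 1 downstream, and kidney regions 5 upstream and 14 downstream. Between 30 and 900 kb downstream there were 17 kidney regions and 0 liver regions. These limits were not set in advance, and liver regions peaked just outside them, at 17.8 kb and 996 kb. Between 10 and 200 kb upstream there were 4 liver regions and 0 kidney regions. At the edge of the rule, the liver fragment just inside had a ratio of 2.0004 (0.0706 in liver and 0.0244 in kidney) and the one just outside 1.9983. On the kidney side these were -2.001 and -1.9992.

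Most genes just upstream had more contact signal in liver. Nucks1, which encodes a nuclear DNA-binding phosphoprotein, had the largest gene mean difference of the window. Its mean was 0.953 in liver and 0.789 in kidney, with more signal in liver in 38 of 38 fragments and 24 of them called. Slc41a1, a magnesium transporter gene, had 0.281 in liver and 0.206 in kidney, with 5 of 29 fragments called for liver. Pm20d1, which encodes a secreted enzyme that makes and breaks N-acyl amino acids, had 0.299 in liver and 0.233 in kidney, with 21 of 43 called for liver. Its region (131809229 to 131820245) peaked at -158 kb with 0.381 ± 0.0319 in liver and 0.230 ± 0.0315 in kidney. The start of Pm20d1 went the other way, with a mean difference of -0.0571 over the 16 fragments within 5 kb of it. Rab29, a small GTPase gene lying between Slc41a1 and Nucks1, had 0.305 in liver and 0.353 in kidney, with no fragment called. So 3 of the 4 genes that start 10 to 200 kb upstream had the higher mean in liver, and by their start regions 2 of 4.

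Further upstream the calls alternated. Ctse, which encodes the aspartic protease cathepsin E, had a mean of 0.136 in liver and 0.0841 in kidney and 10 of 58 fragments called for liver. A stronger liver region lay 5′ of it (131619569 to 131628629), with 0.259 ± 0.0373 in liver and 0.0886 ± 0.0361 in kidney at -349 kb. Slc26a9, a chloride and bicarbonate transporter gene, had 0.124 in liver and 0.154 in kidney, and the fragments within 5 kb of its start differed by -0.0628. A pair of kidney regions lay near that start, at -248 kb with 0.0709 in liver and 0.184 in kidney and at -229 kb with 0.0856 and 0.180. Rab7b, another small GTPase gene, and Avpr1b, a vasopressin receptor gene, had no called fragment, with differences of -0.00932 and -0.000795.

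Downstream, each of the 13 genes that start 10 to 600 kb from the bait had the higher mean in kidney, 8 of them with kidney calls and none with liver calls. The 600 kb limit here was also not set in advance. These 13 genes are not all separate, since AC124108.1 lies within Lemd1 and Elk4 overlaps Mfsd4a, and Gm10188 rests on 1 fragment. The differences of Elk4, Klhdc8a, Tmem81 and Cntn2 were smaller than their mean errors. Over all 67 protein-coding genes of the window, 44 had the higher mean in kidney, 23 had kidney calls and 15 had liver calls. Some of these 67 entries rest on the same fragments, as those of Zc3h11a and Gm38394 and those of Gm28040 do. Centring turns some of the smallest kidney differences above 0, such as those of Thsd7b (0.00101), Avpr1b (0.00235) and Zc3h11a (0.000535). Elk4, an ETS transcription factor gene, had 0.494 in liver and 0.533 in kidney, with no fragment called. Mfsd4a, a putative solute transporter gene, had 0.434 in liver and 0.489 in kidney, with 19 of 78 fragments called for kidney. Kidney signal was the higher within its body (132052210 to 132065522), with 0.411 ± 0.0373 in liver and 0.571 ± 0.0365 in kidney at 87.0 kb. It was higher again before the gene's start, in a region of 31 called fragments (132078733 to 132105413) with 0.159 ± 0.0278 in liver and 0.319 ± 0.0279 in kidney at 114 kb.

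Cdk18, a cyclin-dependent kinase gene, had 0.349 in liver and 0.440 in kidney, with 9 of 34 fragments called for kidney. Nuak2, which encodes a kinase related to AMPK, had 0.274 in liver and 0.355 in kidney, with 12 of 28 called and more signal in kidney in all 28. A region that overlaps its start (132312213 to 132322676) read 0.166 ± 0.0407 in liver and 0.355 ± 0.0398 in kidney at 342 kb. Lemd1, a LEM domain gene known from the testis, had 0.158 in liver and 0.225 in kidney, with 33 of 105 called. AC124108.1, a gene model within Lemd1, had the most negative difference of the window, -0.0998, with 19 of 28 called. These kinase and Lemd1 signals lay on a smaller local level than the Mfsd4a signal.

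The strongest kidney region spanned the end of Lemd1 and the intergenic DNA towards Klhdc8a (132255666 to 132279192, 39 fragments, all called). At 299 kb it read 0.0860 ± 0.0270 in liver and 0.282 ± 0.0273 in kidney, a ratio of -5.11. The difference there was -0.196, against a median of -0.0696 in the bin from 250 to 300 kb. Klhdc8a itself, a kelch domain gene, had 0.261 in liver and 0.276 in kidney and no called fragment. A further region within Lemd1 (132194355 to 132205094) read 0.0864 in liver and 0.218 in kidney at 229 kb.

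Beyond Nuak2 kidney signal remained the higher, with a median difference of -0.0623 from 400 to 450 kb and of -0.0366 from 550 to 600 kb. Tmcc2, a gene for a membrane protein with coiled coils, had 0.141 in liver and 0.197 in kidney, with 3 of 55 called. Dstyk, a dual serine, threonine and tyrosine kinase gene, had 0.124 in liver and 0.184 in kidney, with 11 of 68 called. Rbbp5, whose product is a core subunit of histone H3 lysine 4 methyltransferase complexes, had 0.116 in liver and 0.162 in kidney, with 11 of 39 called. Its region (132493837 to 132500089) peaked at 526 kb with 0.0498 ± 0.0276 in liver and 0.169 ± 0.0268 in kidney. The start of Rbbp5 and that of Elk4 differed the other way, by 0.0233 and 0.0176, so that 11 of the 13 genes had more kidney signal by their start regions.

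**Figure D4:**
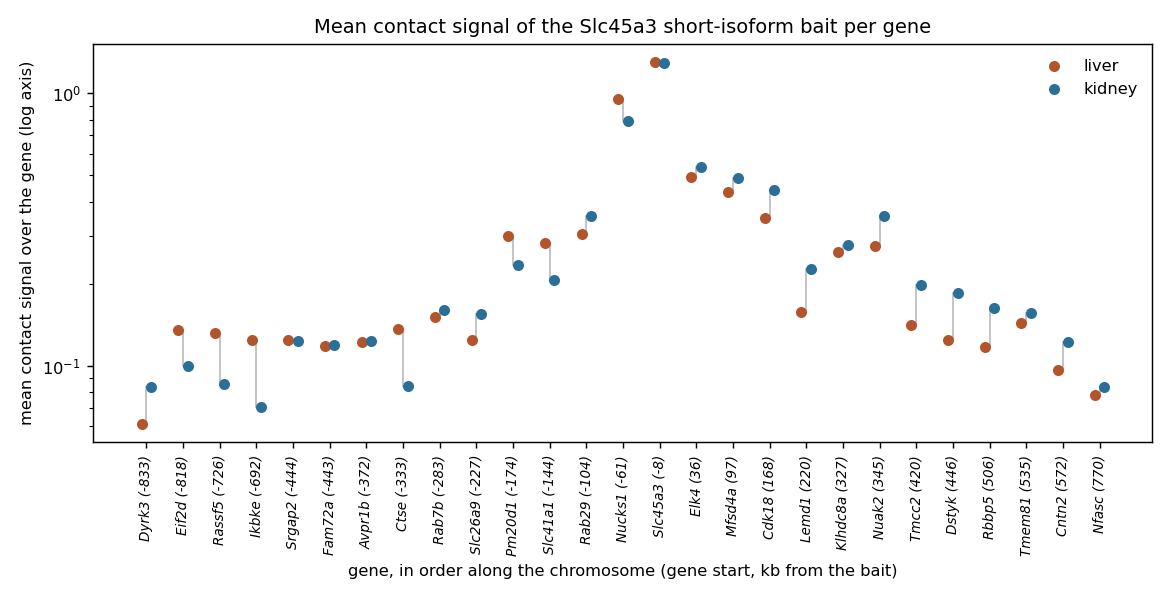
Mean contact signal over protein-coding genes from Dyrk3 to Nfasc in liver (orange) and kidney (blue), on a log axis, ordered along the chromosome with the distance of the gene start from the bait in kb. Nucks1, Slc41a1 and Pm20d1 are higher in liver, and each gene from Elk4 to Cntn2 is higher in kidney.

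Grouped by role, most lists held genes of either sign. Of the 15 near neighbours, 10 had the higher mean in kidney, a share close to the 44 of 67 over all genes, with a median difference of -0.0309 against -0.00550 over all 67 genes. Of the 7 kinase genes, 5 were higher in kidney (Dyrk3, Cdk18, Nuak2, Dstyk and, by a difference of only -0.000363 that centring turns to 0.00278, Pik3c2b), and 3 had kidney calls, against 23 of 67 genes with such calls. Ikbke, which encodes a kinase of antiviral signalling, had 0.124 in liver and 0.0707 in kidney, with 5 of 44 fragments called for liver. The interleukin and immune receptor list holds 10 genes far upstream, among them Ikbke, Mapkapk2 and Rassf5, which are neither. Of the 10, 7 had the higher mean in liver, against 23 of all 67 genes, with a median of 0.00809. By their start regions 5 of the 10 were higher in liver. Il10, Mapkapk2, Fcamr and Fcmr, with differences of 0.00848, 0.00680, 0.00770 and 0.0125, were higher by less than their mean errors. Rassf5, a Ras effector gene of lymphocytes, had 0.131 in liver and 0.0857 in kidney with 22 of 100 called for liver. Il24, a cytokine gene of the IL-10 family, had 0.0783 in liver and 0.0229 in kidney with 9 of 12 called for liver. Il19 went the other way, with 0.0142 in liver and 0.0664 in kidney and more signal in kidney in all 13 fragments, none of them called. Pigr, the receptor that carries polymeric immunoglobulins across epithelia, was also higher in kidney, with 0.0374 in liver and 0.0858 in kidney and 18 of 44 called for kidney. Its region (130820785 to 130837994) peaked at -1137 kb with 0.0296 ± 0.0169 in liver and 0.108 ± 0.0177 in kidney.

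The other lists held smaller differences. Of 5 complement and metabolic neighbours, 4 were higher in kidney, but the kidney signal over Cd55 and Cd55b, both complement regulators, was only 0.0105 and 0.0102. The 3 neural adhesion genes had differences of -0.0257 (Cntn2), -0.00631 (Lrrn2) and -0.00490 (Nfasc), and by their start regions 2 of the 3 were higher in liver. Of 6 renal and hormone genes, 3 were higher in each tissue. Among them Ren1, the renin gene, had 0.0583 in liver and 0.0638 in kidney and no called fragment, and Etnk2, an ethanolamine kinase gene next to it, had 0.110 in liver and 0.0735 in kidney. Of 5 chromatin and cell cycle genes, 2 were higher in liver. Mdm4, which encodes an inhibitor of p53, had 0.0728 in liver and 0.0581 in kidney, with 9 of 114 called for liver.

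The long-isoform bait, 8.44 kb upstream, gave a second view of the same locus from its own libraries, which are also lettered EF and GH. With distances counted from its own position, its median difference had the same sign as the short bait's 10 to 50 kb upstream (0.0583), 50 to 200 kb upstream (0.0131) and 50 to 200 kb downstream (-0.0382). It had the opposite sign within 10 kb downstream (-0.0823 against 0.0233), 10 to 50 kb downstream (-0.0220 against 0.0358) and 1000 to 2000 kb downstream (0.00107 against -0.00216). These bands are shifted by 8.44 kb, so they cover partly different DNA. Most of the long bait's first 10 kb downstream lies within 10 kb upstream of the short bait, where the short median was -0.0629. At the short bait's region peaks at -4.91 kb and 17.8 kb, the long bait's difference had the same sign (-0.0575 and 0.0484). At the peaks of the 63 regions the long bait's difference had the same sign in 43, and in 10 of the 12 with a ratio of at least 3. The share with the same sign over all fragments was not computed, so these counts have no background beside them. It passed 2 errors in the same direction at 6 of the 63. Among these is the peak at -4.91 kb, where the nearest long-bait fragment lay 1513.5 bases away. The long bait passed 2 errors in the opposite direction at the kidney peak at -1798 kb (2.72) and the liver peak at -714 kb (-2.03). At the strongest kidney peak the long bait read 0.123 in liver and 0.151 in kidney, and at the strongest liver peak 0.804 and 0.730. Whether the 2 baits differ was not tested, since no spread over libraries is at hand.

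What the called fragments shared beyond the signal was mainly their place. Of the liver calls, 168 lay upstream and 67 downstream, and of the kidney calls 111 and 251, against 3009 and 3065 of all fragments. GC content was alike, with medians of 46.0% for liver calls, 46.1% for kidney calls and 45.5% for all fragments. Fragment length was alike too, with medians of 413, 444 and 435 bases. Within 5 kb of a protein-coding gene's start lay 9.79% of liver calls, 21.8% of kidney calls and 13.6% of all fragments. Within a gene lay 56.2%, 54.1% and 56.9%. In 106 of the 362 kidney calls even the higher signal was under 0.1, against 27 of the 235 liver calls and 3675 of all 6074 fragments. The 6074 fragments are 61.0% of the 9950 GATC fragments of the window, and those with no value are mostly short, with a median of 104 bases.

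Few short motifs were found at the region peaks. Each was searched on both strands in the 300 bases around the 22 liver and 41 kidney peaks and in 13333 windows of that length across the region. AGGTCA matched at 8 liver peaks (36.4%) and 11 kidney peaks (26.8%), against 18.4% of windows. It also matched in the short promoter, as in 14.0% of 32851 RefSeq promoters of 250 bases. The FOXA motif TGTTTAC matched at 1 liver and 4 kidney peaks (4.0% of windows), and the ONECUT motif ATTGAT at 2 and 8 (11.0%). The E-box CACGTG, bound by clock factors among others, matched at 2 and 1 (3.6%), and the D-box TTATGTAA at 2 and 1 (1.0%). The CTCF core motif matched at 0 liver peaks and 1 kidney peak (0.81%), and the HNF1 motif and the HNF4 motif CAAAGTCCA at none. None of these motifs contains another. A match is a description of letters, not of binding, and with so few peaks these shares have wide error.

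RNA was available for kidney, from mice of another strain and feeding, and liver RNA was not analysed here. Slc45a3-201, whose start the bait marks, ranged from 1.48 to 4.15 TPM (a transcript abundance scaled to the same total in each library) over the 12 WT kidney libraries, with a median of 2.10 and a mean of 2.29 ± 0.779 (SD, n = 12 over 6 times). The highest and the lowest of these values were the 2 libraries of ZT4, so the replicates spread as widely as the times. At ZT20, the time of the contact libraries, it read 2.91 and 1.61 TPM. Slc45a3-202 ranged from 4.41 to 9.83 TPM, with a mean of 7.00 ± 1.79 (SD, n = 12), and at ZT20 read 8.57 and 9.57. Its lowest library stood above the highest library of Slc45a3-201. The short transcript made up 25.2% ± 9.13 (SD, n = 12) of both, from 14.4% to 43.5%. Since these transcripts overlap, their split is the estimate of the quantification program.

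**Figure D5:**
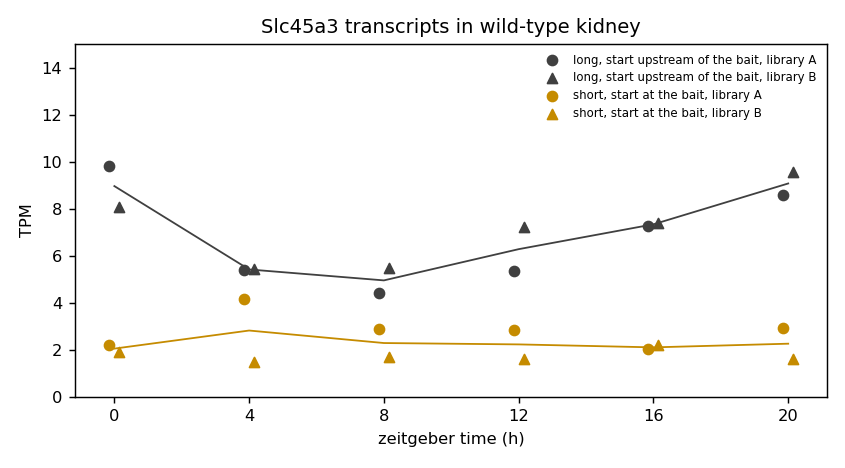
TPM of the long (grey) and short (gold) Slc45a3 transcripts in WT kidney against zeitgeber time in hours, with circles for library A, triangles for library B and lines through the means of 2 libraries. The long transcript spans 4.41 to 9.83 TPM and the short one 1.48 to 4.15 TPM.

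Genes with the higher contact mean in kidney were found among those with and without kidney RNA. Of the 67 genes, 40 had a mean of at least 1 TPM, and 24 of those 40 had the higher contact mean in kidney, as had 20 of the 27 under 1 TPM. Mfsd4a, with kidney-called contacts, had 58.2 and 68.6 TPM at ZT20, Nuak2 38.7 and 23.8, and Cdk18 18.7 and 22.0. Lemd1, over which the strongest kidney region begins, had 0.0134 and 0.0250 TPM. On the liver side, Nucks1 had 13.6 and 13.2 TPM in kidney and Pm20d1 23.4 and 30.7. Pairing these levels with contacts is a description, since strain and feeding differ between the assays.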

How the data were processed

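Chromatin contacts were measured by 4C-seq in 20 liver and kidney libraries and RNA in 24 kidney libraries, per the labels' protocols. The authors deposited, per bait, tissue and fragment, a contact signal (a score of unstated scale) and its variance, per the file headers. Both libraries of a tissue were already combined. The authors deposited TPM per transcript, and kallisto 0.42.4 is named per the submitters' processing notes. Each TPM column sums to between 999999 and 1000000, so depth is unknown. It is unknown for the score too. The aligner and smoothing are not given in the sources used here. The notes list mm9 for the genomic libraries. Coordinates come from matching all offsets (100%) to midpoints of GATC sites on GRCm38.

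The difference was divided by the root of both summed variances, and ratios of at least 2 were called and joined over gaps of up to 10 kb. Joining was tested on simulated data. Gene means covered fragments starting within the gene (GENCODE M21). Members and lists were chosen with earlier results of these data known. Named genes were Slc45a3, genes overlapping or starting within 20 kb of a region, the 5 largest differences each way, and list members. Alternatives included a signal minimum of 0.1 and a difference minimum of 0.1, both chosen after seeing the data. Python 3.11.15, numpy 2.4.6 and pandas 2.3.3 were used. Groups came from the labels. The deposited Z-scores and p-values were not used.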

Additional observations from a re-analysis of the deposited data

How the results depend on the processing

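No paired analysis was possible because the tables hold 1 combined value per tissue, and for the same reason leaving out each library was not run. With a ratio of at least 3 the liver calls were 75 in 5 regions and the kidney calls 63 in 7 regions. With a minimum difference of 0.1, chosen after seeing the data, they were 137 in 11 and 161 in 11. With a minimum signal of 0.1, also chosen after seeing the data, liver regions were 19 and kidney regions 27. At 1 fragment per 5 kb, 3.25% were called for liver and 6.375% for kidney. Centring on the median difference turned the kidney majority into a liver majority, with 323 liver and 286 kidney fragments in 33 and 30 regions. Other gaps, the larger variance and leaving out 10 kb kept each count within 1.5 times. Means or centring moved none of the 10 band medians by more than its error, but centring turned the sign of both medians from 1000 to 2000 kb (to 0.00079 upstream and 0.00099 downstream). By gene starts, 15 of 57 gene differences moved by more than their error, and of these Pm20d1 (-0.0571), Slc45a3 (-0.0385), Rbbp5 (0.0233) and Lrrn2 (0.0351), which hold called fragments, and Elk4 (0.0176), which holds none, changed sign. The cause was not tested. The threshold of 5 TPM left 28 genes. Depth is unknown, so contacts that are low in both tissues may go undetected.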

Other observations

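The 4 other baits were read with the same bands, as values only. On the side of negative offsets from 10 to 50 kb, the median difference was positive for each of the 5 baits. It was 0.0762 for the short Slc45a3 bait, 0.0583 for the long one, 0.242 for Mreg, 0.266 for Pi3kap1 and 0.221 for Slc44a1. The liver excess close to the short promoter on that side is therefore not particular to it. On the side of positive offsets from 50 to 200 kb the baits took either sign. The median was -0.0852 for the short bait, -0.0382 for the long one and -0.0255 for Mreg, but 0.0118 for Slc44a1 and 0.151 for Pi3kap1. The Pi3kap1 libraries were taken at another time of day than the rest.

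Beyond 1000 kb the short bait still had calls at low levels. Over Atp2b4, a calcium pump gene, a liver region at 1741 kb (0.119 in liver and 0.0399 in kidney) lay next to a kidney region at 1750 kb (0.0267 and 0.0949). Around Sox13, a transcription factor gene, liver regions at 1413 kb (0.133 and 0.0539) and 1466 kb (0.0901 and 0.0280) flanked a kidney region at 1456 kb (0.0138 and 0.0683). A liver region at -1498 kb near Cd55 read 0.137 in liver and 0.0239 in kidney, while the long bait read 0.00923 and 0.0170 at that place.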
